A study of Mus musculus with 28 samples.

Results

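Mouse E14 embryonic stem cells that had lost 2iL for 96 h and then received it again for 24 h (96 h + 2iL, 4 libraries) were compared with E14 cells that had never left 2iL (2iL, 4 libraries). The 8 libraries were chosen by the withdrawal and return times in the sample titles, out of 28 libraries in 7 groups. Both groups were grown on gelatin in N2B27, a serum-free medium, and 2iL is the set of CHIR99021 (an inhibitor of the kinase GSK3), PD0325901 (an inhibitor of the kinase MEK) and the cytokine LIF. The other groups were collected 24, 48, 96 or 120 h after 2iL removal, or after 48 h without and 24 h with 2iL (48 h + 2iL). RNA was read by 3′ digital gene expression sequencing, which counts reads near the ends of polyadenylated transcripts. Titles carry an experiment number from 1 to 4, with 1 library of every group in each experiment, so per-library values below run from experiment 1 to experiment 4. All libraries come from 1 cell line, and the labels do not say whether libraries of a group were separate cultures, so p-values measure the spread between these samples, which may be technical.

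2iL holds mouse embryonic stem cells in naive pluripotency, the state of the preimplantation epiblast, in which Nanog, Esrrb, Klf4, Tfcp2l1 and related transcription factors maintain one another. MEK inhibition blocks the signal by which FGF drives exit from this state, GSK3 inhibition stabilises beta-catenin, and LIF acts through STAT3. Once 2iL is removed in N2B27, cells pass through a formative state marked by Otx2, Pou3f1, Fgf5 and Dnmt3b, and many then take on the identity of neural progenitors marked by Sox1. The 2iL libraries carried the naive signature, with 121 to 175 CPM of Nanog and 161 to 223 CPM of Esrrb. The comparison asks which transcripts differed from the starting state 24 h after 2iL had been restored. By itself it does not separate differences left from the withdrawal from those that arose after the return.

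Gene counts were 1591157 to 2405164 per library in 96 h + 2iL and 1748315 to 2828694 in 2iL. Levels are given as CPM, a gene's counts scaled to a common library total. Within 96 h + 2iL the library of experiment 3 stood apart, with a median correlation of 0.919 with the other 3 libraries of its group, against 0.944 to 0.951 for those libraries and 0.9505 to 0.962 within 2iL. Mitochondrially encoded transcripts made up 1.37% ± 0.13 of gene counts in 96 h + 2iL and 2.37% ± 0.27 in 2iL (SD, n = 4 each). Counts assigned to the gene entry Gm42418 alone averaged 163700 CPM in 96 h + 2iL and 175900 CPM in 2iL. Which RNA these reads came from was not examined. In bulk samples such as these, fewer cells expressing a gene and less RNA per cell cannot be told apart.

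A gene is called changed where its adjusted p (Benjamini-Hochberg, over all genes tested) was under 0.05. Of 11080 genes tested, 4798 (43.3%) were called between 96 h + 2iL and 2iL, 2483 of them higher (22.4%) and 2315 lower (20.9%) in 96 h + 2iL. At least 4-fold differences were called for 823 genes that were higher (7.43%) and 551 that were lower (4.97%). Without the 96 h + 2iL library of experiment 3, 4282 genes were called, and 4082 of the 4798 were called again in the same direction. Leaving out any other of the 8 libraries gave 4258 to 4649 calls. Counts over a list of genes are given beside these shares of all genes. The lists and their members were chosen with earlier results of these data known. A list's share may therefore be raised by that choice, and the comparison is descriptive only.

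**Figure D1:**
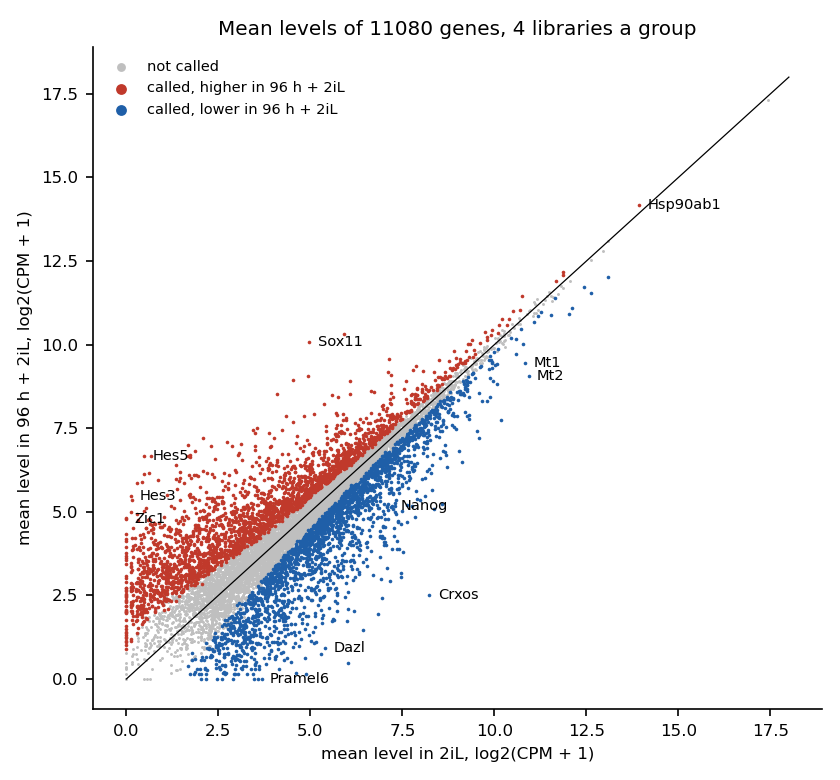
Mean level of each of the 11080 genes tested in 96 h + 2iL (vertical axis) against its mean level in 2iL (horizontal axis), both as log2(CPM + 1) over 4 libraries. Red points (2483 genes) were called higher and blue points (2315 genes) lower in 96 h + 2iL, grey points were not called, and the line marks equal levels. Hes3, Zic1 and Hes5 lie near the left edge because they had little or no signal in 2iL, and Pramel6 and Dazl lie near the bottom.

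The largest rises were in genes with few or no counts in 2iL, several of them known from the developing nervous system. Hes3 (chr4:152285972-152291662 on mm10, minus strand), which encodes a repressor of the Hes family active in neural progenitors, had 30.4, 29.7, 61.8 and 50.9 CPM in 96 h + 2iL, against 0, 0, 0.376 and 0 CPM in 2iL. The only counts for it in 2iL came from experiment 3, and the ratio of pooled counts was 371 (exact 95% interval 66.2 to 14709, counting error only; adjusted p = 3.2e-11). Stra6 (chr9:58063788-58153996, plus strand), the membrane receptor through which cells take up retinol from its binding protein, had 46.99, 35.5, 27.3 and 48.4 CPM in 96 h + 2iL, against 0, 0.429, 0 and 0 CPM in 2iL. All 4 re-induced libraries were high in Stra6, and the ratio of pooled counts was 343 (exact 95% interval 61.2 to 13603; adjusted p = 5.7e-09).

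Among transcription factors, Zic1, a zinc-finger factor of the dorsal neural tube, had 4.75, 21.9, 59.4 and 20.5 CPM in 96 h + 2iL and no count in any 2iL library. Zic1 was at least 78.2-fold higher with the floor set at 3 counts over the 4 libraries (46.0 at the lowest when 1 library was left out). Msx3 is a homeobox gene of the dorsal neural tube. It had 8.54, 19.8, 34.6 and 44.7 CPM in 96 h + 2iL and was likewise without counts in 2iL, at least 74.98-fold higher. Foxb1, a forkhead factor of the embryonic neural tube, had 112, 117, 73.5 and 98.7 CPM in 96 h + 2iL, against 0, 0.429, 0.751 and 1.14 CPM in 2iL (log2 fold change 7.62 ± 0.69 (SE), adjusted p = 6.8e-11). The 4 re-induced libraries lay close together for Foxb1. Pou3f2, a POU factor of neural progenitors also called Brn2, had 12.8, 24.3, 159 and 81.3 CPM in 96 h + 2iL, against 0.483, 0, 0 and 1.14 CPM in 2iL, and was much higher in experiments 3 and 4.

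Of the other genes among the 15 largest rises, Hes5 is described with the Notch genes. Apln, which encodes the peptide ligand apelin, was higher in experiments 1 and 2, with 17.6, 20.6, 6.33 and 2.48 CPM in 96 h + 2iL and no count in 2iL (at least 37.3-fold higher). Fgfbp3, an FGF-binding secreted protein, had 30.4, 25.99, 71.1 and 98.7 CPM in 96 h + 2iL, against 0.483, 0.429, 0 and 0 CPM in 2iL. Nfasc, the axonal adhesion protein neurofascin, had 13.3, 16.1, 15.1 and 13.7 CPM in 96 h + 2iL and no count in 2iL. Cntfr, a receptor subunit for ciliary neurotrophic factor, Smpd3, a sphingomyelinase, Ajap1, an adherens junction protein, and Snph, which anchors mitochondria in axons, were also without counts in 2iL and averaged 17.4, 19.3, 12.6 and 10.8 CPM in 96 h + 2iL. Lrrc8c, a subunit of volume-regulated anion channels, had 23.3, 33.8, 29.7 and 37.2 CPM in 96 h + 2iL, against 0, 0, 0.376 and 0 CPM in 2iL. For all 15 genes every re-induced library lay above every 2iL library, as the rule that named them required, and 35.8% of all genes tested showed no overlap in either direction.

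**Figure D2:**
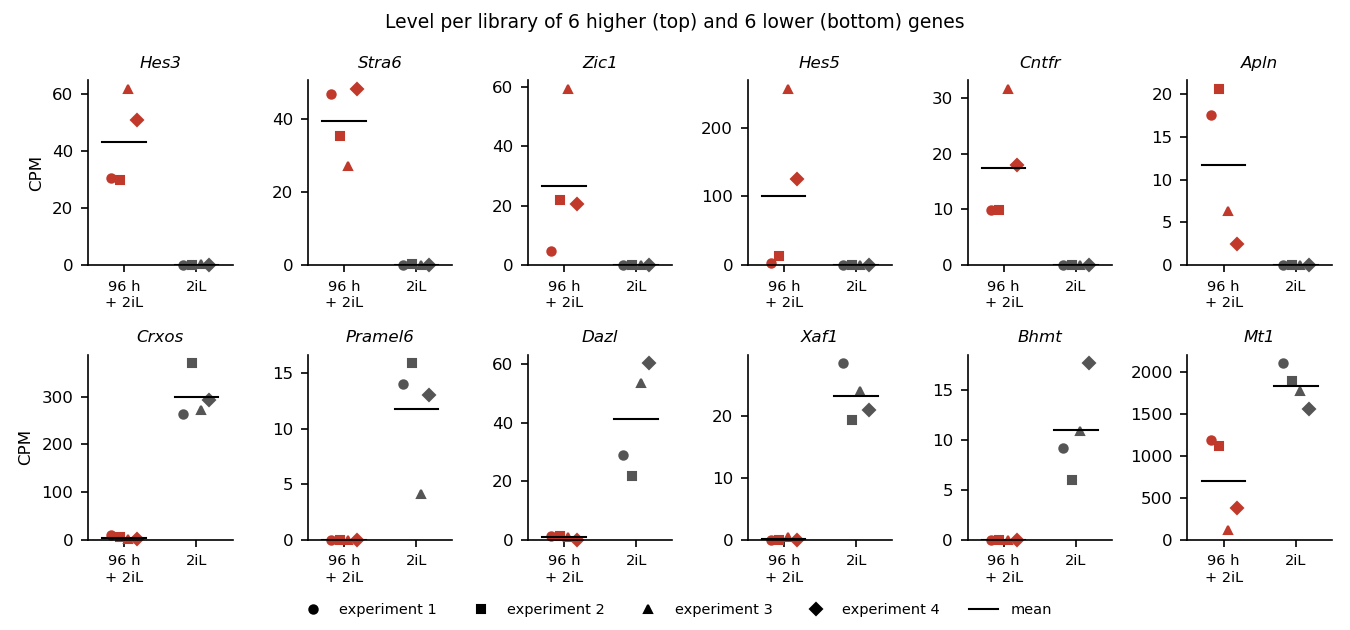
Level in CPM of 6 genes that were higher in 96 h + 2iL (top row) and 6 that were lower (bottom row), with 96 h + 2iL in red on the left and 2iL in grey on the right of each panel. Marker shapes give the experiment and the bar the mean of 4 libraries. Hes3 and Stra6 are at or near 0 in every 2iL library, Crxos has 264 to 370.1 CPM there, and Hes5 and Mt1 are spread widely over the 4 re-induced libraries.

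The largest falls included genes known from the oocyte and the germ line, along with genes of other functions. Crxos (chr7:15882617-15904020, plus strand), a homeobox gene expressed in embryonic stem cells and transcribed from the strand opposite Crx, had 9.97, 5.36, 2.43 and 1.24 CPM in 96 h + 2iL, against 264, 370.1, 272 and 294 CPM in 2iL (log2 fold change -6.01 ± 0.31 (SE), adjusted p = 1.7e-16). Strand use in counting is not given in the sources used here, so any reads from bases shared by Crxos and Crx could not be told apart. Khdc3, a maternal-effect protein of the oocyte, had 0.475, 0, 0 and 0 CPM in 96 h + 2iL, against 52.2, 30.1, 14.3 and 16.5 CPM in 2iL. The ratio of its pooled counts was 228 in favour of 2iL (exact 95% interval 40.5 to 9027). Dazl (chr17:50279395-50293636, minus strand), an RNA-binding protein of germ cells, had 1.42, 1.24, 0.973 and 0 CPM in 96 h + 2iL, against 28.99, 21.9, 53.4 and 60.2 CPM in 2iL (log2 fold change -5.23 ± 0.49 (SE), adjusted p = 1.5e-10). Nlrp4f, of a family of oocyte and early embryo proteins, averaged 0.31 ± 0.621 CPM in 96 h + 2iL and 11.3 ± 1.79 CPM in 2iL (SD, n = 4 each).

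Pramel6, of the PRAME family, and Rhox2a, of the X-linked Rhox homeobox cluster, had no count in any re-induced library and 14.01, 15.9, 4.13 and 13.1 CPM and 5.8, 5.15, 7.14 and 22.1 CPM in 2iL. They were at least 30.97-fold and 25.4-fold lower (26.5 and 16.6 at the lowest when 1 library was left out). Both belong to tandem families with near-identical copies, as does Tuba3a, an alpha-tubulin gene (1.76 ± 1.21 CPM in 96 h + 2iL and 84.9 ± 17.5 CPM in 2iL), so their counts are uncertain. Bhmt, which remethylates homocysteine with betaine, was without counts in 96 h + 2iL and had 9.18, 6.01, 10.9 and 17.6 CPM in 2iL (at least 28.8-fold lower). Fetub, the secreted protease inhibitor fetuin-B, had 0.949, 0, 0 and 0.621 CPM in 96 h + 2iL, against 44.9, 57.1, 84.2 and 71.5 CPM in 2iL. Ly6a, which encodes the surface antigen Sca-1, had 1.42, 3.3, 4.87 and 1.86 CPM in 96 h + 2iL, against 154, 132, 85.7 and 81.8 CPM in 2iL (log2 fold change -5.22 ± 0.36 (SE), adjusted p = 8.2e-14). Xaf1, an XIAP-associated protein, averaged 0.122 ± 0.243 CPM in 96 h + 2iL and 23.2 ± 4.03 CPM in 2iL, and Msc, the bHLH factor musculin, 0.547 ± 0.642 CPM in 96 h + 2iL and 28.05 ± 4.14 CPM in 2iL. Zfp977, Arl14epl and Lrriq4 were at or below 1.24 CPM in every re-induced library and averaged 16.7, 19.6 and 10.2 CPM in 2iL.

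Among abundant transcripts, the largest differences in mean CPM concerned chaperones, tubulin, a cyclin and metallothioneins. Ccnd2, which encodes the G1 cyclin D2, had 778, 1023, 2033 and 1217 CPM in 96 h + 2iL, against 41.5, 69.1, 72.1 and 53.9 CPM in 2iL (log2 fold change 4.33 ± 0.27 (SE), adjusted p = 9.3e-15). Sox11, a SoxC factor of neural precursors, had 656, 811, 1637 and 1259 CPM in 96 h + 2iL, against 44.4, 27.9, 37.6 and 11.9 CPM in 2iL (log2 fold change 5.07 ± 0.29 (SE), adjusted p = 1.6e-15). Tubb5, a beta-tubulin, averaged 2803 ± 187 CPM in 96 h + 2iL and 1724 ± 147 CPM in 2iL, and Npm1, the nucleolar protein nucleophosmin, 4634 ± 225 CPM in 96 h + 2iL and 3730.2 ± 561 CPM in 2iL. The 2 cytosolic HSP90 genes moved in opposite directions. Hsp90ab1 averaged 18558 ± 1352 CPM in 96 h + 2iL and 15643 ± 2509.9 CPM in 2iL (log2 fold change 0.26), and its call was lost without the re-induced or the 2iL library of experiment 1 (adjusted p = 0.0807 and 0.124). Hsp90aa1 averaged 2207 ± 414 CPM in 96 h + 2iL and 4419 ± 319.5 CPM in 2iL (log2 fold change -1.01). Mt1 and Mt2, which bind zinc and copper, fell most in experiments 3 and 4. Mt1 had 1195, 1116, 114 and 376 CPM in 96 h + 2iL, against 2108, 1889, 1773 and 1560.3 CPM in 2iL, and Mt2 averaged 536 ± 415 CPM in 96 h + 2iL and 1955 ± 515 CPM in 2iL. Eif2s2, a subunit of the translation initiation factor eIF2, averaged 1938 ± 109 CPM in 96 h + 2iL and 4134 ± 467 CPM in 2iL, and the nuclear RNA Malat1 1881 ± 482 CPM in 96 h + 2iL and 2964 ± 819 CPM in 2iL.

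Transcripts of the naive network remained far below the 2iL level. Of 17 naive pluripotency genes tested, 16 were lower and 1 was higher in 96 h + 2iL, with a median log2 fold change of -2.60, against 0.01 over all genes tested. Nanog (chr6:122707489-122714633, plus strand) had 57.4, 54.04, 6.33 and 21.7 CPM in 96 h + 2iL, against 156, 140.4, 121 and 175 CPM in 2iL (log2 fold change -2.14 ± 0.28 (SE), adjusted p = 1.9e-07). Esrrb, an orphan nuclear receptor of the network, had 60.8, 50.7, 7.79 and 24.8 CPM in 96 h + 2iL, against 213, 161, 183.7 and 223 CPM in 2iL (log2 fold change -2.46 ± 0.27 (SE), adjusted p = 3.5e-09), and Tfcp2l1 had 130.1, 129.9, 25.3 and 69.5 CPM in 96 h + 2iL, against 485, 510.0, 567 and 639 CPM in 2iL (log2 fold change -2.68 ± 0.25 (SE), adjusted p = 1.0e-10). In each of these genes the library of experiment 3 was the lowest of the re-induced libraries and those of experiments 1 and 2 were the highest. None reached the lowest 2iL library.

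Other naive genes were lower still. Tcl1, a coactivator of the kinase AKT, had 6.17, 7.43, 4.38 and 11.2 CPM in 96 h + 2iL, against 172, 173, 173 and 186 CPM in 2iL (log2 fold change -4.64 ± 0.24 (SE), adjusted p = 1.7e-16), with the re-induced libraries close together. Klf4 averaged 36.8 ± 18.5 CPM in 96 h + 2iL and 379.7 ± 43.4 CPM in 2iL, and Tbx3 13.8 ± 9.58 CPM in 96 h + 2iL and 162 ± 25.4 CPM in 2iL. Tdh, a threonine dehydrogenase that feeds stem-cell metabolism in the mouse, averaged 79.5 ± 47.9 CPM in 96 h + 2iL and 422 ± 73.05 CPM in 2iL. Gbx2, a homeobox target of LIF signalling that also patterns the hindbrain, was the exception, with 37.98, 22.7, 20.9 and 36 CPM in 96 h + 2iL, against 17.4, 6.87, 10.5 and 7.95 CPM in 2iL (log2 fold change 1.48 ± 0.31 (SE), adjusted p = 2.3e-04). Of 11 genes of general pluripotency, 8 fell and 1 rose (median -1.75). Pou5f1, which encodes OCT4, averaged 7.14 ± 5.16 CPM in 96 h + 2iL and 32.5 ± 3.66 CPM in 2iL, levels that leave out reads aligned to several places, which its pseudogenes give rise to. Utf1 averaged 14.2 ± 9.14 CPM in 96 h + 2iL and 63.4 ± 24.6 CPM in 2iL and Sox2, which neural progenitors also express, 362 ± 45.6 CPM in 96 h + 2iL and 576 ± 131 CPM in 2iL. Lin28a, an inhibitor of let-7 processing, was the member that rose, with 385 ± 58.1 CPM in 96 h + 2iL and 104 ± 26.2 CPM in 2iL (log2 fold change 1.88 ± 0.16 (SE), adjusted p = 1.9e-11).

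The size of these differences varied with the experiment. Within each experiment, the median over the 17 naive genes of the log2 ratio of re-induced to 2iL levels, on log2(CPM + 1), was -1.60, -1.68, -4.24 and -3.12 for experiments 1 to 4, and that of the 11 general pluripotency genes was -1.19, -1.05, -2.71 and -2.30. The corresponding median over all 11080 genes lay between -0.01 and 0.02. The neural progenitor list ran the other way, with 2.21, 2.84, 4.71 and 2.92. The list of mesendoderm and primitive streak genes had 2.88, 2.57, -0.07 and -0.37, so its median was above 0 in experiments 1 and 2 only. The naive and general pluripotency lists kept 16 and 8 members lower without the re-induced library of experiment 3.

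**Figure D3:**
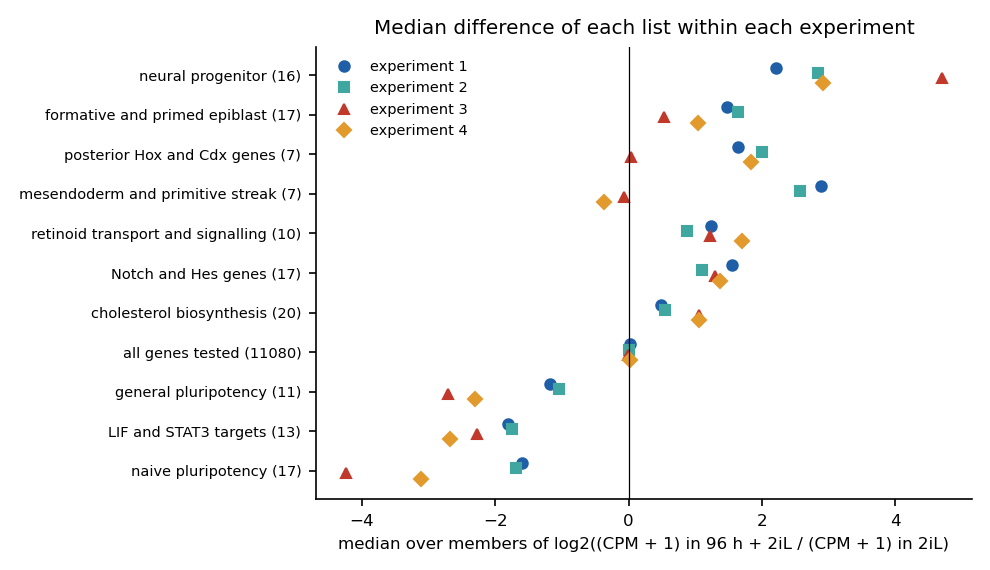
Median over the tested members of each list (number in brackets) of log2((CPM + 1) in 96 h + 2iL / (CPM + 1) in 2iL), computed within each of the 4 experiments, which are marked by shape and colour. Experiments 3 and 4 lie further left than experiments 1 and 2 in the naive and general pluripotency lists, and experiment 3 lies furthest right in the neural progenitor list (4.71).

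Formative genes did not behave as a block. Of 17 formative and primed epiblast genes tested, 11 were higher and 3 lower (median 1.60). Fgf5 and Dnmt3b, whose transcripts peak in the formative state, were not called. Fgf5 averaged 0.483 ± 0.351 CPM in 96 h + 2iL and 0.451 ± 0.36 CPM in 2iL, and Dnmt3b 114 ± 27 CPM in 96 h + 2iL and 92.1 ± 22.2 CPM in 2iL (adjusted p = 0.98 and 0.54). At 96 h, before 2iL was returned, they stood at 43.1 and 1088 CPM. Otx2 had 17.6, 37.5, 224 and 33.5 CPM in 96 h + 2iL, against 14.5, 21.04, 9.77 and 8.52 CPM in 2iL (log2 fold change 2.30 ± 0.40 (SE), adjusted p = 1.8e-05). Its re-induced library of experiment 3 was far above the others, and the groups overlapped. Pou3f1 had 14.7, 21.5, 113 and 54 CPM in 96 h + 2iL, against 3.86, 4.72, 6.76 and 7.95 CPM in 2iL. Sox3, a SoxB1 factor shared by epiblast and neural progenitors, averaged 68.3 ± 19.97 CPM in 96 h + 2iL and 2.27 ± 1.79 CPM in 2iL (log2 fold change 4.89 ± 0.29 (SE), adjusted p = 4.6e-15), and Lin28b, the paralogue of Lin28a, 70.2 ± 38.3 CPM in 96 h + 2iL and 3.6 ± 2.06 CPM in 2iL. The ETS factor Etv4 fell to 4.93 ± 2.63 CPM in 96 h + 2iL, against 51.7 ± 18.7 CPM in 2iL. Dnmt3l, a cofactor of the de novo DNA methyltransferases, fell to 11.4 ± 7.53 CPM in 96 h + 2iL, against 38.5 ± 31.6 CPM in 2iL.

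Neural progenitor genes were higher in 96 h + 2iL: of 16 tested, 13 rose and 1 fell (median 4.91). Without the re-induced library of experiment 3, 12 rose. Genes near 0 in 2iL pass the count filter only through other groups, so their rise is partly fixed by that filter. The same limit holds for such genes among the largest rises and in the neuron, Notch, retinoid, streak and Hox lists. Sox1, the earliest marker of neuroectoderm, had 80.7, 109.7, 207 and 193 CPM in 96 h + 2iL, against 8.21, 2.58, 1.13 and 1.14 CPM in 2iL (log2 fold change 5.45 ± 0.48 (SE), adjusted p = 4.2e-11). Nkx6-1, a homeobox factor of the ventral neural tube, had 43.7, 70.95, 108 and 110.5 CPM in 96 h + 2iL, against 0, 0.859, 0.751 and 4.54 CPM in 2iL (log2 fold change 6.0 ± 0.57 (SE), adjusted p = 2.0e-10). Pax6 was low throughout, with 1.9, 1.24, 11.2 and 1.86 CPM in 96 h + 2iL, against 0.966, 0, 1.13 and 1.14 CPM in 2iL. Its call was lost without the re-induced library of experiment 3 (adjusted p = 0.237) and without the 2iL library of experiment 2 or 3 (0.094 and 0.118). Plagl1, an imprinted zinc-finger gene, was the member that fell (15.03 ± 4.95 CPM in 96 h + 2iL and 80.1 ± 26.4 CPM in 2iL). Of 7 neuron genes tested, 4 rose and 1 fell (median 2.78). Gap43, a growth-cone protein, averaged 98.7 ± 32.1 CPM in 96 h + 2iL and 2.3 ± 1.74 CPM in 2iL, and Map2, a dendritic microtubule protein, 23.5 ± 8.4 CPM in 96 h + 2iL and 2.64 ± 1.14 CPM in 2iL. Among the neuron genes listed, Dcx, Neurog2 and Snap25 had too few counts to test.

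Notch signalling keeps neural progenitors from differentiating. Ligands such as Dll1 activate Notch receptors on neighbouring cells, and the freed receptor domain acts with the DNA-binding protein RBPJ on the Hes genes. Of 17 Notch and Hes genes tested, 10 rose and 2 fell (median 1.56). The ligand gene Dll1 had 5.7, 1.24, 24.3 and 26.7 CPM in 96 h + 2iL, against 0, 0.859, 0 and 0.568 CPM in 2iL. Lfng, which glycosylates Notch receptors, had 11.9, 19.8, 84.7 and 21.7 CPM in 96 h + 2iL, against 1.93, 2.15, 7.51 and 5.11 CPM in 2iL (log2 fold change 2.90 ± 0.43 (SE), adjusted p = 1.4e-06). Hes5 (chr4:154960923-154962371, plus strand), a main Notch target in neural progenitors, had 3.8, 14.03, 256 and 126 CPM in 96 h + 2iL, against 0, 0.859, 0.751 and 0 CPM in 2iL (log2 fold change 7.37 ± 0.68 (SE), adjusted p = 8.6e-11). The levels of Hes5 in experiments 3 and 4 were far above those in experiments 1 and 2, yet all 4 exceeded every 2iL library. Hes1 averaged 25.1 ± 2.83 CPM in 96 h + 2iL and 40.03 ± 2.47 CPM in 2iL (log2 fold change -0.66, adjusted p = 0.045). The call was lost under library totals, without the experiment block and without any of 7 of the 8 libraries (adjusted p from 0.0502 to 0.13).

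The 250 bases before the start of Hes5 (chr4:154960673-154960922, plus strand, GRCm38.p6) are shown because this is the Notch target with the widest spread among the re-induced libraries. Capitals mark the RBPJ core GTGGGAA or its reverse complement TTCCCAC, searched on both strands.
Hes5: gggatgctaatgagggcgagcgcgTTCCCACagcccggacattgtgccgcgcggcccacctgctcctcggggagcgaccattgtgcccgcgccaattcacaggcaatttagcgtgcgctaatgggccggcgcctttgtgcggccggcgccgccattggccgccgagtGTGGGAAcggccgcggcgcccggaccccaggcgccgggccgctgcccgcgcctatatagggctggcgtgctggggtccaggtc
The window holds 2 matches, beginning 226 and 83 bases before the start. Of 32851 such windows in the RefSeq promoter table, 5.42% hold at least 1 match and 0.161% at least 2. Among the 14 Notch and Hes genes with a window, Hes5, Hey2 and Lfng hold a match. Hes3 and Foxb1 have no window in that table and were not searched.

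Genes of retinoid transport were also higher. The vitamin A route runs from uptake of retinol (Stra6) through oxidation to retinoic acid, which Crabp1 and Crabp2 bind in the cytosol, to the nuclear RAR and RXR receptors. Of 10 tested, 7 rose and 1 fell (median 2.19). Crabp2 had 18.5, 21.5, 137 and 91.9 CPM in 96 h + 2iL, against 0.483, 3.43, 5.26 and 1.14 CPM in 2iL (log2 fold change 4.40 ± 0.36 (SE), adjusted p = 9.0e-12). Crabp1 had 22.3, 14.9, 230.2 and 459 CPM in 96 h + 2iL, against 7.25, 9.02, 15.8 and 10.8 CPM in 2iL (log2 fold change 3.64 ± 0.56 (SE), adjusted p = 2.1e-06), again highest in experiments 3 and 4. The receptor gene Rarg averaged 58.6 ± 24.8 CPM in 96 h + 2iL and 64.3 ± 10.9 CPM in 2iL, a difference that was not called (adjusted p = 0.47). The targets Rarb, Cyp26a1, Cyp26b1 and Stra8 and the retinaldehyde dehydrogenases Aldh1a1, Aldh1a2 and Aldh1a3 had too few counts to test.

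Genes of the primitive streak, an embryonic region of high WNT signalling, included several that were split by experiment. Of 7 mesendoderm and primitive streak genes tested, 5 were higher and 1 lower (median 1.52). The number higher was 2 without the re-induced library of experiment 2 and 3 without experiment 1 of either group or without the 2iL library of experiment 2. When only these 8 libraries were fitted, 1 was higher. T, which encodes Brachyury, had 87.3, 117, 3.89 and 13.04 CPM in 96 h + 2iL, against 10.6, 18.5, 24.4 and 24.4 CPM in 2iL (log2 fold change 1.52 ± 0.55 (SE), adjusted p = 0.025). Experiments 1 and 2 lay above and experiments 3 and 4 within or below the 2iL range. The call was lost without experiment 1 or 2 of either group (adjusted p from 0.073 to 0.45) and under DESeq2 (0.129). Evx1 averaged 13.2 ± 11.6 CPM in 96 h + 2iL and 1.97 ± 1.96 CPM in 2iL and Wnt3 10.2 ± 7.8 CPM in 96 h + 2iL and 3.67 ± 1.75 CPM in 2iL, with the same split. Evx1 was not called without the re-induced library of experiment 2 (adjusted p = 0.135), nor Wnt3 without experiment 1 or 2 of either group (0.0658 to 0.155). Fgf8, a ligand of the streak and of the midbrain-hindbrain boundary, was higher in all 4, with 7.6, 6.19, 29.7 and 16.8 CPM in 96 h + 2iL, against 0, 0, 0.751 and 0 CPM in 2iL. Tlx2, a target of BMP signalling, was lower, with 0.949, 1.24, 0 and 0 CPM in 96 h + 2iL, against 10.6, 10.7, 7.14 and 20.4 CPM in 2iL (adjusted p = 1.9e-04, and 0.0512 by DESeq2). Mixl1, Gsc, Sox17, Mesp1, Tbx6, Lhx1 and Gata6 had too few counts to test.

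Of 7 posterior Hox and Cdx genes tested, 4 rose and 1 fell (median 1.93). Cdx2, a caudal homeobox factor, had 144, 110.1, 32.1 and 97.5 CPM in 96 h + 2iL, against 7.25, 12.4, 16.2 and 17.6 CPM in 2iL (log2 fold change 3.06 ± 0.43 (SE), adjusted p = 5.1e-07), and all re-induced libraries exceeded all 2iL libraries. Hoxb1, a hindbrain Hox gene, had 11.4, 23.5, 13.6 and 91.9 CPM in 96 h + 2iL, against 0.483, 4.72, 0 and 0 CPM in 2iL (log2 fold change 4.32 ± 0.65 (SE), adjusted p = 1.7e-06), and Hoxb4 15.7, 21.9, 5.84 and 26.1 CPM in 96 h + 2iL, against 4.35, 4.72, 1.88 and 0.568 CPM in 2iL. Nkx1-2, a gene of the caudal epiblast, averaged 82.5 ± 49.1 CPM in 96 h + 2iL and 22.2 ± 4.47 CPM in 2iL (log2 fold change 1.93 ± 0.41 (SE), adjusted p = 2.0e-04). Cdx1 was the member that fell (6.8 ± 3.39 CPM in 96 h + 2iL and 16.3 ± 7.49 CPM in 2iL, adjusted p = 0.022). It was not called without the 2iL library of experiment 1 or 2 or the re-induced library of experiment 2 or 3 (0.0547 to 0.127).

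The 3 components of 2iL have known direct readouts, and these did not move together. Of 13 LIF and STAT3 targets tested, 12 fell and 1, Gbx2, rose (median -2.09). Gbx2 is also in the naive list, so the counts of the 2 lists are not independent. How far these falls reflect LIF signalling rather than the lower naive network was not tested. Socs3, the feedback inhibitor of the pathway, had 11.9, 12.4, 20.9 and 9.31 CPM in 96 h + 2iL, against 51.7, 24.9, 31.9 and 21.01 CPM in 2iL (log2 fold change -1.23 ± 0.30 (SE), adjusted p = 0.0013). Bcl3 had 24.2, 24.3, 5.35 and 10.6 CPM in 96 h + 2iL, against 86.96, 101, 95.4 and 87.4 CPM in 2iL (log2 fold change -2.56 ± 0.27 (SE), adjusted p = 1.2e-09). Transcripts of the receptor subunit Lifr averaged 10.7 ± 3.9 CPM in 96 h + 2iL and 70.9 ± 21.7 CPM in 2iL and of Stat3 itself 61.1 ± 8.08 CPM in 96 h + 2iL and 121 ± 17.9 CPM in 2iL. Of 13 WNT and beta-catenin targets tested, 6 rose and 1 fell (median 0.63). With 1 library left out 4 to 7 rose, and none fell without experiment 2 of either group, 2iL experiment 1 or re-induced experiment 3. Axin2 and Sp5, direct feedback targets, averaged 61.3 ± 6.4 CPM in 96 h + 2iL and 49.6 ± 14.4 CPM in 2iL and 133 ± 47.5 CPM in 96 h + 2iL and 114 ± 18.3 CPM in 2iL, differences that were not called (adjusted p = 0.23 and 0.48). Axin2 was called higher without the re-induced library of experiment 3 (log2 fold change 0.63, adjusted p = 0.0378). Nkd1, an inhibitor of the pathway, had 137, 130.4, 124 and 122 CPM in 96 h + 2iL, against 2.42, 1.29, 3.38 and 1.7 CPM in 2iL (log2 fold change 5.92 ± 0.36 (SE), adjusted p = 6.2e-15), with the 4 re-induced libraries within a narrow range.

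Of 14 MEK and ERK targets tested, 4 rose and 4 fell (median -0.21), a share close to the background in each direction. Dusp6, an ERK phosphatase and feedback target, averaged 6.1 ± 2.996 CPM in 96 h + 2iL and 10.1 ± 2.52 CPM in 2iL (adjusted p = 0.094). It was called lower without the re-induced library of experiment 2 (log2 fold change -0.98, adjusted p = 0.0327). Egr1, an immediate early gene, had 1.9, 4.54, 4.87 and 1.86 CPM in 96 h + 2iL, against 1.45, 186, 38.7 and 30.7 CPM in 2iL (adjusted p = 4.5e-06), with the 2iL libraries spread widely. Of 9 NODAL pathway genes tested, 5 fell and 2 rose (median -1.55). The ligand gene Nodal averaged 9.37 ± 8.18 CPM in 96 h + 2iL and 30.3 ± 5.79 CPM in 2iL (log2 fold change -1.73 ± 0.41 (SE), adjusted p = 8.6e-04). The NODAL inhibitors Lefty1 and Lefty2, which share sequence, had overlapping groups. Lefty1 had 128, 117, 10.7 and 31.04 CPM in 96 h + 2iL, against 5.8, 33.1, 13.5 and 39.2 CPM in 2iL, and Lefty2 89.2, 82.5, 7.3 and 22.3 CPM in 96 h + 2iL, against 40.1, 221, 52.2 and 270.3 CPM in 2iL. The call of Lefty1 as higher was lost without experiment 1 of either group or the re-induced library of experiment 2 (adjusted p = 0.0544 to 0.0603). That of Lefty2 as lower was lost without the 2iL library of experiment 4 (0.0555).

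**Figure D4:**
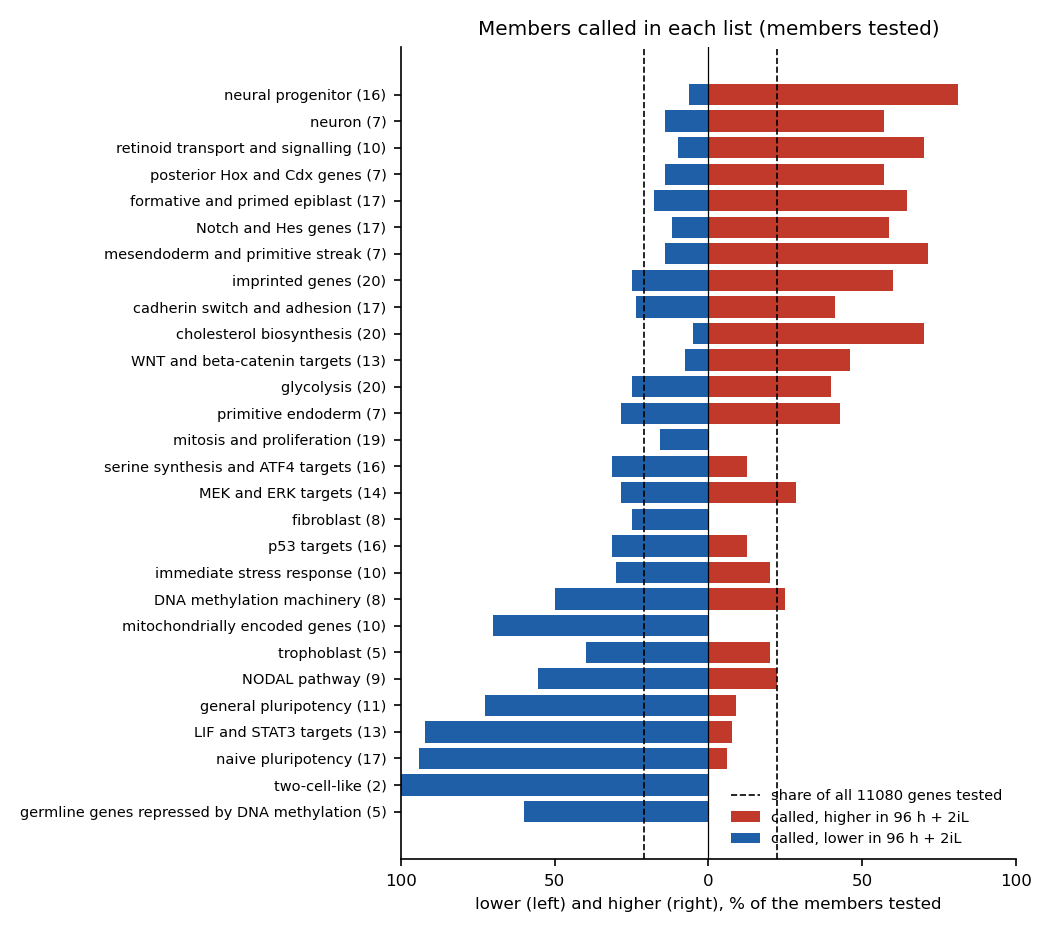
Share of the tested members of each gene list (number tested in brackets) called higher (red, right) or lower (blue, left) in 96 h + 2iL than in 2iL, ordered by the list's median log2 fold change. Dashed lines mark the shares over all 11080 genes, 22.4% higher and 20.9% lower, for description only, because the lists were chosen with earlier results known. Naive pluripotency and LIF and STAT3 targets extend furthest to the left among lists of more than 5 genes, and the neural progenitor list furthest to the right.

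DNA methylation is low in 2iL and is re-established by DNMT3A, DNMT3B and DNMT3L on exit from the naive state, while TET enzymes oxidise it. Of 8 genes of this machinery tested, 2 rose and 4 fell (median -0.32). Dnmt3a averaged 85.8 ± 27.3 CPM in 96 h + 2iL and 30.8 ± 2.39 CPM in 2iL (log2 fold change 1.47 ± 0.23 (SE), adjusted p = 2.2e-06). Tet1 averaged 127 ± 59.6 CPM in 96 h + 2iL and 406 ± 42.6 CPM in 2iL (log2 fold change -1.75 ± 0.22 (SE), adjusted p = 7.2e-08), and Tet3 38.8 ± 6.43 CPM in 96 h + 2iL and 3.997 ± 1.93 CPM in 2iL (log2 fold change 3.25 ± 0.34 (SE), adjusted p = 1.4e-09), so the 2 paralogues moved in opposite directions. The maintenance enzyme Dnmt1 averaged 251 ± 30.8 CPM in 96 h + 2iL and 258 ± 44.3 CPM in 2iL (adjusted p = 0.81). Of 5 germline genes repressed by DNA methylation that were tested, 3 fell and the other 2 were not called (median -3.55), among them Dazl and Rpl10l, a testis-expressed retrocopy of the ribosomal gene Rpl10 (8.02 ± 3.89 CPM in 96 h + 2iL and 175 ± 23.6 CPM in 2iL). Counts of Rpl10l are uncertain because of its parent gene. Of the 14 genes listed, 9 had too few counts to test. Genes high only in 2iL pass the count filter through that group, so a fall among them is partly fixed by the filter.

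The 250 bases before the starts of Dazl (chr17:50293621-50293870, minus strand) and Crxos (chr7:15882367-15882616, plus strand), both on GRCm38.p6, are shown because both genes were among the largest falls while their CG content differs. Capitals mark each CG.
Dazl: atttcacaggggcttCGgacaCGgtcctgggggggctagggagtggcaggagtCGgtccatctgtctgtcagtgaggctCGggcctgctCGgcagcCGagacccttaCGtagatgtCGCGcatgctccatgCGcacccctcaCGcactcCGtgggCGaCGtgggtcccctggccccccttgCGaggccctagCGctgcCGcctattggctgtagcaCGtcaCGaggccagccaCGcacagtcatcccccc
Crxos: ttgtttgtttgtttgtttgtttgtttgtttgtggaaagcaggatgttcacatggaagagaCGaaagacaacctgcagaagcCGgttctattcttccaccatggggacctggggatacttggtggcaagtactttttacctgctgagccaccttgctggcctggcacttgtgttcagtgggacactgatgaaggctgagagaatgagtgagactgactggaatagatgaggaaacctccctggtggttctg
Dazl has 20 CG dinucleotides in this window and Crxos 2, against a median of 6 over the 32851 windows (quartiles 2 and 16). The 12 genes with a window among the 15 largest falls had 0 to 20 (median 4.5), and the 12 among the 15 largest rises 4 to 43 (median 18). The 14 germline genes of the list had 8 to 31 (median 17.5). These are counts of letters, and methylation was not measured here.

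Imprinted genes, expressed from 1 parental copy, were mostly higher: of 20 tested, 12 rose and 5 fell (median 0.82). Nnat, the paternally expressed neuronatin gene, had 199.8, 209, 135 and 107 CPM in 96 h + 2iL, against 7.73, 8.59, 13.2 and 11.9 CPM in 2iL (log2 fold change 3.91 ± 0.23 (SE), adjusted p = 1.7e-15), and Grb10, an adaptor of growth factor receptors, 37.03, 41.7, 94.9 and 109 CPM in 96 h + 2iL, against 3.38, 4.72, 6.39 and 6.81 CPM in 2iL (log2 fold change 3.68 ± 0.28 (SE), adjusted p = 7.7e-13). The maternally expressed RNA H19 averaged 59.4 ± 41.8 CPM in 96 h + 2iL and 5.09 ± 1.85 CPM in 2iL, highest in experiments 1 and 2. The maternally expressed RNA Meg3 averaged 674 ± 338 CPM in 96 h + 2iL and 1025 ± 212 CPM in 2iL (adjusted p = 0.028), with the library of experiment 3 lowest at 221 CPM. Meg3 was not called without that library or the 2iL library of experiment 3 (adjusted p = 0.185 and 0.148), without the experiment block (0.0932) or under DESeq2 (0.0718).

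Among metabolic genes, most of the rises were in sterol synthesis. Of 20 cholesterol biosynthesis genes tested, 14 rose and 1 fell (median 0.69). Hmgcs1, which makes the precursor of mevalonate, had 516, 507, 717 and 670.4 CPM in 96 h + 2iL, against 261, 204, 208 and 204 CPM in 2iL (log2 fold change 1.44 ± 0.12 (SE), adjusted p = 1.1e-11). Insig1, a brake on this pathway, was the member that fell (34.5 ± 9.35 CPM in 96 h + 2iL and 58.7 ± 23.6 CPM in 2iL). It was not called without the 2iL library of experiment 1 (adjusted p = 0.0725). Of 20 glycolysis genes tested, 8 rose and 5 fell (median 0.24). The hexokinase gene Hk1 averaged 17.5 ± 4.92 CPM in 96 h + 2iL and 121 ± 16.4 CPM in 2iL (log2 fold change -2.77 ± 0.22 (SE), adjusted p = 3.8e-12), and the lactate exporter gene Slc16a3 63.5 ± 10.03 CPM in 96 h + 2iL and 13.4 ± 10.7 CPM in 2iL (log2 fold change 2.32 ± 0.27 (SE), adjusted p = 1.5e-08). Of 16 genes of serine synthesis and ATF4 targets, 2 rose (1 without any 1 of 6 of the libraries) and 5 fell (median -0.10), including Asns, asparagine synthetase (104 ± 26.6 CPM in 96 h + 2iL and 324 ± 58.9 CPM in 2iL). Of 10 mitochondrially encoded genes tested, 7 fell and 3 were not called (median -0.48), and 3 fell without the 2iL library of experiment 3. The mitochondrial transcript mt-Nd2 averaged 4157 ± 479 CPM in 96 h + 2iL and 8666 ± 1238 CPM in 2iL (log2 fold change -1.06 ± 0.14 (SE), adjusted p = 1.1e-07).

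Adhesion genes moved in both directions. Of 17 tested, 7 rose and 4 fell (median 0.81). Cdh1, the E-cadherin of epithelia and embryonic stem cells, had 553, 603, 46.2 and 182 CPM in 96 h + 2iL, against 843, 1060.4, 989 and 872 CPM in 2iL (log2 fold change -1.68 ± 0.38 (SE), adjusted p = 5.6e-04), and Cdh2, the N-cadherin of neural cells, 31.8, 55.7, 98.3 and 88.8 CPM in 96 h + 2iL, against 2.9, 3.43, 5.26 and 4.54 CPM in 2iL (log2 fold change 4.05 ± 0.31 (SE), adjusted p = 1.1e-12). The libraries lowest in Cdh1, experiments 3 and 4, were the highest in Cdh2. Of 19 mitosis and proliferation genes tested, 3 fell and the rest were not called (median -0.10), a share below that of all genes. When only these 8 libraries were fitted 1 fell, and with library totals 2 rose. Leaving out 2iL experiment 3 or re-induced experiment 4 gave 1 higher. Ube2c averaged 151 ± 18.9 CPM in 96 h + 2iL and 241 ± 34.5 CPM in 2iL, and Mki67 185 ± 22.9 CPM in 96 h + 2iL and 157 ± 24.6 CPM in 2iL (adjusted p = 0.11). Of 16 p53 targets, 2 rose and 5 fell (median -0.23). With 1 library left out, 0 to 2 rose, the fewest without 2iL experiment 1 or re-induced experiment 4. The number that fell was then 3 to 7, with the fewest when 2iL experiment 4 was left out. Cdkn1a, the cell cycle inhibitor p21, averaged 701 ± 254 CPM in 96 h + 2iL and 808 ± 163 CPM in 2iL (adjusted p = 0.29). Of 10 immediate stress genes, 2 rose and 3 fell (median -0.27). Leaving out 2iL experiment 1 left 1 higher, and leaving out 2iL experiment 2 left 1 lower. Hspa5, an endoplasmic reticulum chaperone, averaged 1058 ± 127 CPM in 96 h + 2iL and 785 ± 51.1 CPM in 2iL.

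Markers of cell types outside the epiblast and neural lineages showed no common direction. Of 7 primitive endoderm genes tested, 3 rose and 2 fell (median 0.21), among them the basement membrane genes Col4a1 (34.5 ± 8.98 CPM in 96 h + 2iL and 8.88 ± 3.33 CPM in 2iL) and Lama1 (11.2 ± 2.68 CPM in 96 h + 2iL and 41.7 ± 9.56 CPM in 2iL). Gata4, Sox7, Hnf4a and Ttr had too few counts to test, with Sox7 and Ttr at 0 in all 8 libraries. Of 5 trophoblast genes tested, 1 rose and 2 fell (median -0.76), and 0 to 2 fell when 1 library was left out, the fewest without experiment 3 of either group. Krt18, a keratin, was the member that rose (46.99, 20.2, 4.38 and 10.6 CPM in 96 h + 2iL, against 3.38, 1.29, 1.13 and 1.14 CPM in 2iL), and Elf5 and Tpbpa were at 0 in all 8 libraries. Of 8 fibroblast genes tested, 2 fell and 6 were not called (median -0.22), including Fn1 (85.2 ± 20.5 CPM in 96 h + 2iL and 226 ± 54.6 CPM in 2iL). With 1 library left out 1 to 3 fell, the fewest without experiment 3 of either group or the re-induced library of experiment 4, and 1 rose without re-induced experiment 3. The summed level of the fibroblast list was 457 to 667 CPM in 96 h + 2iL and 629 to 1067 CPM in 2iL. Both members of the list for two-cell-like cells that could be tested, Eif1a and Gm21761, fell, and 5 of its genes were at 0 in all 8 libraries. Gm21761 averaged 0.119 ± 0.237 CPM in 96 h + 2iL and 6.78 ± 7.88 CPM in 2iL, with the 2iL level mostly from experiment 4. Eif1a made up nearly all of the summed level of this list, 130 to 152 CPM in 96 h + 2iL and 196 to 243 CPM in 2iL. The list therefore says little about two-cell-like cells. The part of these other cell types in the results above was not tested.

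The re-induced cells were next compared with the other groups of the time course. Against 48 h + 2iL, 3009 genes were called (27.2%), 1556 higher and 1453 lower in 96 h + 2iL. The 48 h + 2iL cells themselves differed from 2iL in 1616 genes (14.6%), 860 higher and 756 lower. Nanog averaged 34.9 CPM in 96 h + 2iL, 116 CPM in 48 h + 2iL and 148 CPM in 2iL (log2 fold change 96 h + 2iL over 48 h + 2iL -1.75 ± 0.28, adjusted p = 1.3e-05). Sox1 averaged 148 CPM in 96 h + 2iL, 2.81 CPM in 48 h + 2iL and 3.26 CPM in 2iL. Stra6 averaged 39.5, 2.62 and 0.107 CPM in the same order of groups, and Crxos 4.75, 45.8 and 300.1 CPM. Of the 17 naive genes, 15 were lower in 96 h + 2iL than in 48 h + 2iL (median -2.11; 13.1% of all genes were called lower). Of the 16 neural progenitor genes, 13 were higher (median 3.18; 14% of all genes). Both comparisons with 2iL share the same 2iL libraries.

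Cells left without 2iL for the full 120 h are the match in time for 96 h + 2iL. Between 96 h + 2iL and 120 h, 413 genes were called (3.73%), 194 higher (1.75%) and 219 lower (1.98%) in 96 h + 2iL. Between 96 h + 2iL and 96 h, 1339 were called (12.1%), 616 higher (5.56%) and 723 lower (6.53%). The 120 h group differed from 2iL in 5484 genes (49.5%) and the 96 h group in 4823 (43.5%). Tfcp2l1 averaged 88.7 CPM in 96 h + 2iL and 8.87 CPM at 120 h (log2 fold change 3.27 ± 0.32, adjusted p = 3.7e-08), against 550.1 CPM in 2iL. Esrrb was likewise higher in 96 h + 2iL than at 120 h (36.03 and 6.24 CPM, adjusted p = 3.2e-05), and Dnmt3b was lower (114 and 460.1 CPM, adjusted p = 6.9e-05). Sox1 averaged 148 CPM in 96 h + 2iL and 153 CPM at 120 h (log2 fold change -0.09 ± 0.31, adjusted p = 0.93), and Hes3 43.2 and 43.3 CPM.

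Stra6, Nkd1, Cdx2 and Fgfbp3, picked after their values were seen, had their highest mean of the 7 groups in 96 h + 2iL. Each was called against 120 h. Stra6 had 46.99, 35.5, 27.3 and 48.4 CPM in 96 h + 2iL and 2.61, 4.47, 4.95 and 5.8 CPM at 120 h (log2 fold change 3.26 ± 0.53, adjusted p = 2.3e-04), with 2.39 CPM at 96 h and 0.107 CPM in 2iL. Nkd1 averaged 128 ± 6.85 CPM in 96 h + 2iL and 54.4 ± 19.4 CPM at 120 h (adjusted p = 7.6e-04), and 11.4 CPM in 48 h + 2iL. Cdx2 averaged 96.01 ± 46.96 CPM in 96 h + 2iL, 37.4 CPM in 48 h + 2iL and 18.1 ± 13.5 CPM at 120 h (log2 fold change over 120 h 2.74 ± 0.43, adjusted p = 8.3e-05). Fgfbp3 was also higher in 96 h + 2iL than at 120 h (56.5 and 14.5 CPM, adjusted p = 1.8e-04). Cdkn1a, whose level in 96 h + 2iL was not called different from 2iL, averaged 701 CPM in 96 h + 2iL and 251 CPM at 120 h (adjusted p = 2.2e-06).

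**Figure D5:**
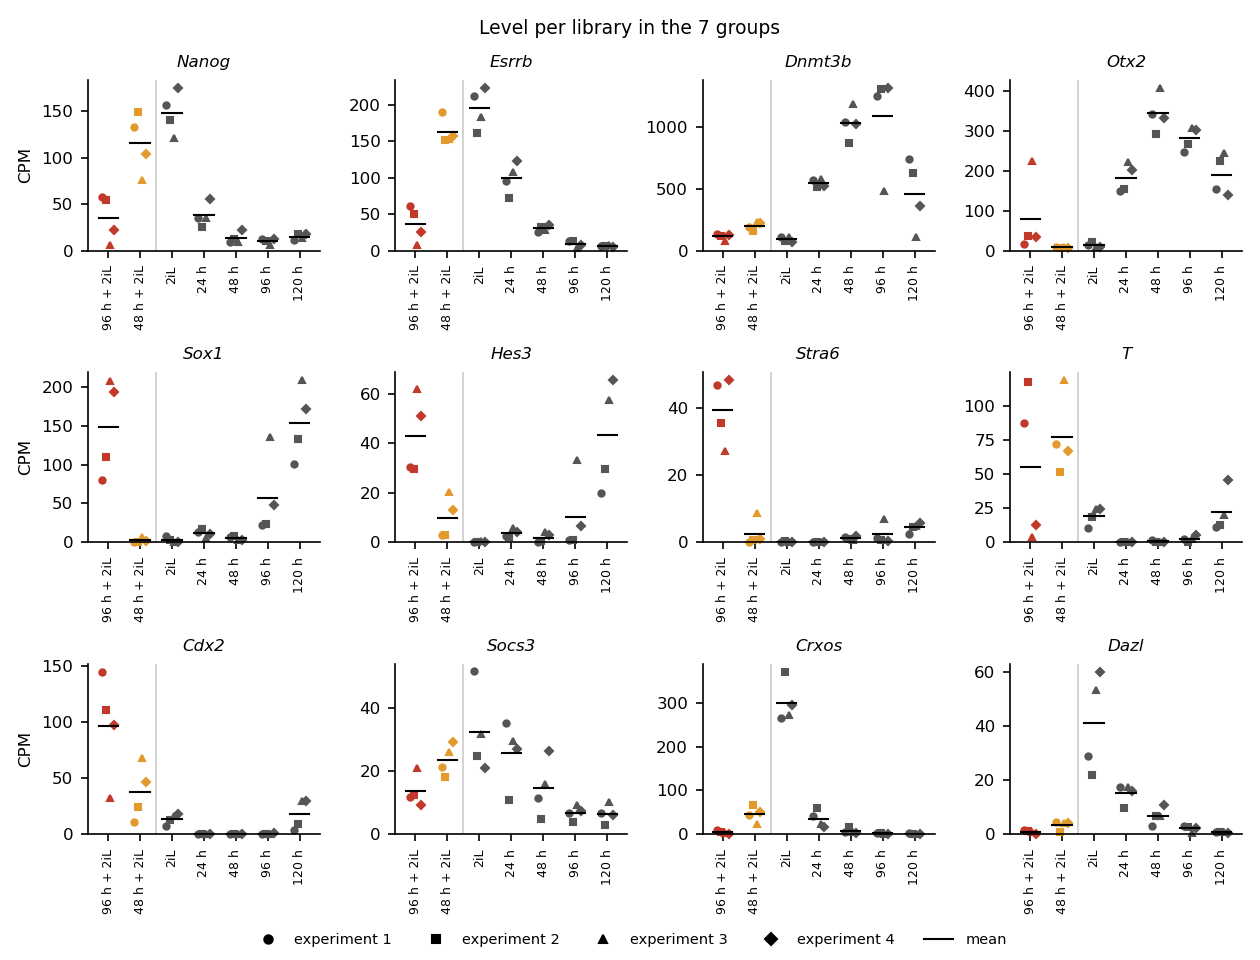
Level in CPM of 12 genes in every library of the 7 groups, with the groups that received 2iL again (96 h + 2iL in red, 48 h + 2iL in orange) left of the grey line and the 2iL group followed by 24, 48, 96 and 120 h without 2iL to its right. Shapes mark the experiment and bars the mean of 4 libraries. Nanog and Esrrb in 96 h + 2iL lie between the 120 h and 2iL levels, Sox1 and Hes3 lie near the 120 h level, and Stra6 is higher in 96 h + 2iL than in every other group.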

How the data were processed

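3′ digital gene expression libraries were processed, per the submitters' processing notes, with bcl2fastq, STAR 2.6.0a and HTSeq on mm10; settings, strand and molecular identifiers are not given in the sources used here. The authors deposited raw counts per gene and a CPM table, which matched CPM computed from the counts in 28 of 28 columns (tolerance 1e-06) and was used only for symbols. Alignments listed as not unique, 52.3% to 60.1% of all listed counts, were not assigned to genes, so genes with close copies are undercounted. A read aligned to several places may be listed more than once, so this is not a share of reads. Gene positions are from GENCODE M21, promoter windows from RefSeq (GRCm38.p6).

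Genes kept by filterByExpr (10 counts, 15 in total) were fitted over all 28 libraries with edgeR 4.0.16 (R 4.3.3; TMM, quasi-likelihood, a mean per group and the experiment number as block), two-sided, adjusted over 11080 genes. SE is the absolute log2 fold change divided by the square root of F, and CPM values use TMM-scaled totals. The script was tested on simulated data. Libraries with the same experiment number correlated at 0.031 to 0.090 after group means were removed, others at -0.083 to 0.052, and the block rests on the titles' wording. Chi-square per gene over 42 replicate pairs was 2.48 to 11.3, so spread exceeded counting error, and intervals and floors (3 counts over a group) cover counting error only. Alternatives were DESeq2 1.42.0, other scalings, no filter, no block, 8 libraries only and each library left out.

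Named genes are the 15 largest called rises and falls with at least 10 CPM in the higher group and no overlap of libraries, the 5 largest differences in mean CPM each way, Hes3, Stra6 and Crxos, and members of 28 lists (394 genes, 27 in more than 1); symbols of the Gm and Rik kinds, mitochondrial genes and pseudogenes were passed over outside the lists. Members and lists were chosen with earlier results of these data known. The contrast with 120 h was added after seeing the data.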

Additional observations from a re-analysis of the deposited data

Results flagged for a closer look

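The difference from 2iL was not the same in the re-induced groups, whose withdrawal time and total time since 2iL removal differ together. Since both re-induced groups are set against the same 2iL libraries, the test of 96 h + 2iL against 48 h + 2iL is the test of that difference, and 3009 of 11080 genes passed it. Many of the 121 genes named here were picked for their difference from 2iL in these same 96 h + 2iL libraries. Their share is therefore raised by the choice and cannot be read against that of all genes. Of the 121, 85 passed the test, 41 with a positive and 44 with a negative log2 difference, after 96 h minus after 48 h. That log2 difference is given below for genes that passed only. Among the genes with the largest rises over 2iL, it was 7.35 for Zic1, 5.06 for Msx3, 2.84 for Smpd3, 2.43 for Hes3, 2.88 for Cntfr, 4.17 for Stra6, 1.82 for Nfasc, 3.83 for Ajap1, 2.81 for Foxb1, 3.53 for Fgfbp3, 3.13 for Lrrc8c, 7.69 for Hes5 and 6.47 for Pou3f2. Among those with the largest falls, it was -4.41 for Rhox2a, -3.82 for Fetub, -4.46 for Khdc3, -4.47 for Xaf1, -3.22 for Crxos, -4.08 for Zfp977, -2.68 for Tuba3a, -4.18 for Nlrp4f, -1.68 for Dazl, -3.23 for Arl14epl and -2.82 for Lrriq4. In the pluripotency lists it was -1.75 for Nanog, -2.20 for Esrrb, -2.11 for Tfcp2l1, -2.14 for Klf4, -2.05 for Tbx3, -2.48 for Tcl1, -2.48 for Tdh, -1.99 for Pou5f1, -0.70 for Sox2, -1.95 for Utf1 and 0.63 for Lin28a. Of formative genes it was 3.15 for Otx2, 2.59 for Pou3f1, -0.86 for Dnmt3b, -2.39 for Dnmt3l, 2.18 for Sox3, -1.53 for Etv4 and 2.31 for Lin28b. Of neural progenitor and neuron genes not yet given it was 5.67 for Sox1, 2.67 for Sox11, 4.98 for Nkx6-1 and 1.03 for Gap43. Of Notch and retinoid genes it was 3.58 for Dll1, 1.99 for Lfng, 3.30 for Crabp1, 2.74 for Crabp2 and -0.66 for Rarg. Of streak, posterior, WNT and NODAL genes it was 2.68 for Fgf8, -2.31 for Cdx1, 1.66 for Cdx2, 1.66 for Hoxb1, 3.07 for Hoxb4, 3.61 for Nkd1 and -1.17 for Lefty2. Of LIF and STAT3 targets it was -0.82 for Stat3, -2.08 for Bcl3 and -1.92 for Lifr. Of the other genes named it was 3.15 for Ccnd2, 0.25 for Tubb5, -0.85 for Hsp90aa1, -0.61 for Eif2s2, -1.83 for Mt2, -1.71 for Mt1, -1.38 for Tet1, 1.52 for Tet3, -3.22 for Rpl10l, 2.86 for Nnat, 2.08 for Grb10, 1.20 for H19, 0.93 for Hmgcs1, -1.27 for Hk1, -1.41 for Asns, -0.58 for Cdkn1a, -0.57 for Ube2c, -1.58 for Cdh1, 2.52 for Cdh2, 1.44 for Col4a1, 2.81 for Krt18, -0.69 for Fn1, -0.48 for Eif1a and -0.74 for mt-Nd2.

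In groups of 4 libraries, 1 library lay far from the other 3 in 24 of 242 groups checked (the 121 genes named, in 96 h + 2iL and in 2iL). Of these, 9 are a small value beside 3 libraries at 0, which the check marks by its construction. That leaves 15 of the 242, where chance gives about 1 in 20 groups if values are normally spread, which CPM need not be. The number found is close to that share, so any of the genes below may be flagged by chance. Within 96 h + 2iL the library of experiment 3 was the high one for Otx2 (223.9 CPM, others 17.6 to 37.5), Pax6 (11.2 CPM, others 1.24 to 1.90) and Lfng (84.7 CPM, others 11.9 to 21.7), and that of experiment 4 for Hoxb1 (91.9 CPM, others 11.4 to 23.5). In the same group, single libraries held the counts of genes at 0 in the other 3, with 0.475 CPM of Khdc3, 0.487 CPM of Xaf1, 0.949 CPM of Zfp977, 1.24 CPM of Nlrp4f and 0.475 CPM of Gm21761. Within 2iL the same was true of Hes3 and Lrrc8c (0.376 CPM each), Stra6 (0.429 CPM) and Fgf8 (0.752 CPM). The 2iL library of experiment 4 was high for Rhox2a (22.1 CPM, others 5.15 to 7.14), Tcl1 (186 CPM, others 172 to 173), Hes1 (43.7 CPM, others 38.6 to 39.1) and Slc16a3 (29.5 CPM, others 7.89 to 8.21). That of experiment 1 was high for Utf1 (100 CPM, others 47.0 to 53.7), Hmgcs1 (260.9 CPM, others 204 to 208) and Krt18 (3.38 CPM, others 1.13 to 1.29) and low for Cdkn1a (565 CPM, others 879 to 902). That of experiment 2 was high for Tet3 (6.87 CPM, others 2.84 to 3.38) and Hoxb1 (4.72 CPM, others 0 to 0.483) and at 0 for Pax6 (others 0.966 to 1.14).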

How the results depend on the processing

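The number of genes called between 96 h + 2iL and 2iL was 4798, and stayed within 1.5 times of it in every alternative run: 4813 with DESeq2 size factors in edgeR, 4800 with library totals, 4938 with no filter on low counts, 4853 by DESeq2, 3621 when only these 8 libraries were fitted, and 4258 to 4649 without 1 library. For 96 h + 2iL against 48 h + 2iL, with 3009 calls, the same alternatives gave 3003, 2960, 3008, 3113, 2571 and 2347 to 2893. The fit without the replicate block (the experiment number) called 4540 and 2672 genes. The share of calls that were higher moved most with library totals, to 57.4% from 51.8%, with a median shift of 0.08 on the log2 scale over all genes. Among the 121 genes named, 12 lost a call in at least 1 alternative, and the report gives each beside its value except for the fit of these 8 libraries alone, in which T, Lefty1, Lefty2, Meg3, Insig1 and Hsp90ab1 were not called (adjusted p from 0.0552 to 0.354). Mki67 was called higher with library totals (adjusted p = 0.0386) and Cdkn1a lower without the 2iL library of experiment 1 (0.0431). In the fit of the 8 libraries alone, the members counted were also fewer for trophoblast (0 lower, against 2), fibroblast (1 lower, against 2), NODAL (1 higher, against 2) and serine synthesis and ATF4 genes (1 higher, against 2). Without the replicate block, adhesion genes had 2 lower (against 4), p53 targets 1 higher (against 2), and trophoblast and fibroblast genes 1 lower each (against 2). DESeq2 gave 1 lower trophoblast gene, library totals 1 lower fibroblast gene, and no filter 2 lower Hox and Cdx genes (against 1). Only Fgf5 and Dnmt1, neither of them called, changed sign: Fgf5 had log2 fold changes of -0.44 to 0.60 without 1 library, and Dnmt1 of -0.115 to 0.0211 without 1 library and 0.0330 with library totals. Genes with a few counts per library have wide intervals, so the size of the largest folds is known only as a bound or a broad range.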

Other observations

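The libraries of experiment 3 stood apart both after 2iL was returned and at 96 h, before its return. In 96 h + 2iL, experiments 1 to 4 had 80.7, 109.7, 207 and 193 CPM of Sox1, 30.4, 29.7, 61.8 and 50.9 CPM of Hes3, and 134, 119.6, 74 and 127 CPM of Dnmt3b. At 96 h, Sox1 had 22.9, 23.9, 135 and 47.4 CPM in experiments 1 to 4, Hes3 0.917, 0.808, 33.1 and 6.49 CPM, and Dnmt3b 1251, 1307, 478 and 1316 CPM. The highest Sox1 and Hes3 and the lowest Dnmt3b were in experiment 3 in both groups. In 48 h + 2iL, Sox1 had 1.01, 0.841, 7.07 and 2.33 CPM and Hes3 3.03, 2.94, 20.4 and 13 CPM. These values were picked after the data were seen, and no test was made of them.

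Of the largest rises, Apln and Nfasc are given here at 96 h as well, also picked after their values were seen. Apln had 17.6, 20.6, 6.33 and 2.48 CPM in 96 h + 2iL and 11.9, 9.7, 5.67 and 13 CPM at 96 h. Nfasc had 13.3, 16.1, 15.1 and 13.7 CPM in 96 h + 2iL and 32.6, 25.5, 46.7 and 41.4 CPM at 96 h.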
